A study of Mus musculus with 2 samples.

Results

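Genes that respond to the progesterone receptor, the glucocorticoid receptor or both were read in mouse ovaries close to ovulation, together with the glucocorticoid receptor and the enzymes that activate or inactivate corticosteroids. The group holds 9 genes: Nr3c1, Hsd11b1, Hsd11b2, Fkbp4, Fkbp5, Zbtb16, Tsc22d3, Sgk1 and Per1. They were taken by gene symbol, as every probe set whose platform annotation names one of them alone, which gave 23 of the 45101 probe sets on the array. A probe set is a group of short probes that together read 1 transcript or a few transcript forms.

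The study compared ovaries of wild-type and progesterone receptor (PR) knockout C57BL/6 mice, 24 to 28 days old. Both genotypes received 5 IU of PMSG, a gonadotropin that makes follicles grow, and 48 h later 5 IU of hCG, which acts like the ovulatory surge of luteinizing hormone. Ovaries were taken 11 h after hCG, and RNA of each genotype was read on 1 Affymetrix array, so there are no replicates, and differences below carry no test across animals. The way the receptor gene was disrupted and the number of animals behind each RNA are not given in the labels.

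The progesterone and glucocorticoid receptors are closely related steroid-activated transcription factors. Both wait in the cell bound to heat shock proteins and their co-chaperones, and once they hold hormone they bind much the same DNA element, a pair of half-sites facing each other. A gene near such an element can therefore respond to progesterone in cells with much progesterone receptor and to corticosteroid in cells with much glucocorticoid receptor. In the ovary, granulosa cells of preovulatory follicles gain progesterone receptor after the luteinizing hormone surge, and corticosteroid reaches the same follicles from the blood.

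The DNA element is shown here because response to it is what the target genes are known for. RefSeq promoter windows (GRCm38.p6), each running from 250 bases before to 50 bases after an annotated transcript start, were matched for 6 of the 9 genes: Fkbp4, Fkbp5, Hsd11b1, Per1, Sgk1 and Tsc22d3. They gave 14 windows, 6 of them for alternative starts of Sgk1 and 3 for Tsc22d3. The windows were searched on both strands for the palindrome, AGAACA and TGTTCT separated by 3 bases, with at most 2 mismatches among its 12 fixed letters, for the half-site AGAACA or TGTTCT alone, and for the E-box CACGTG, the element of the circadian clock factors. Capitals mark these matches in the windows below, each written 5′ to 3′ on the strand of its gene.
Sgk1, chr10:21993640-21993939, plus strand: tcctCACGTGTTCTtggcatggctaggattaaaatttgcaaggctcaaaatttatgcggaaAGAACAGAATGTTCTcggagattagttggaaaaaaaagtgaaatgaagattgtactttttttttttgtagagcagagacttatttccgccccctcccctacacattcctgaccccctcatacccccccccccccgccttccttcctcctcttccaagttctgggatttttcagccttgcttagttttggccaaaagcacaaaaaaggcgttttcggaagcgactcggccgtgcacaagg
Tsc22d3, chrX:140600473-140600772, minus strand: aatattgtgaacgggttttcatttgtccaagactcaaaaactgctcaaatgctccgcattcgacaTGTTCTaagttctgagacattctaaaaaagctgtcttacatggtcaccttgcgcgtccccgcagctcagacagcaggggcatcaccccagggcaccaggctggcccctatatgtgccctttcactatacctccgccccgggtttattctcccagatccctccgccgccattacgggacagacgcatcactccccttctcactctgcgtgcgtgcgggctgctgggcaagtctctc
Per1, chr11:69098699-69098998, plus strand: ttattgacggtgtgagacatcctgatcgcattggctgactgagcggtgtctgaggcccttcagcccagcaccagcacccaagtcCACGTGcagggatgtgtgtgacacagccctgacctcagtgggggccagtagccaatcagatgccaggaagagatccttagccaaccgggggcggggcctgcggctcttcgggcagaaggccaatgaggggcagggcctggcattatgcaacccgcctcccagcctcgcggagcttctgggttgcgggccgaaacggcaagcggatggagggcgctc

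The Sgk1 window held the palindrome with 0 mismatches, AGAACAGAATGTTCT, beginning 189 bases before the start, which counts as 2 half-sites as well. Of 32851 windows of the same length in the table, 3 held it without a mismatch, and 1.84% held it with at most 2. An E-box lay 246 bases before the Sgk1 start and overlapped a half-site that began 242 bases before it. The Tsc22d3 window shown held 1 half-site, 185 bases before the start, and no palindrome within 2 mismatches, and 19% of all windows hold a half-site. The other 2 Tsc22d3 windows held none of the motifs. The Per1 window shown held an E-box 166 bases before its start, a motif in 7.15% of all windows, and Fkbp5 had one as well, 169 bases before, while the second Per1 window held none of the motifs. In all, 4 of the 14 windows held a half-site and 3 an E-box, and those shown were picked for their matches. Besides the Sgk1 window above, 1 other of the 14, also of Sgk1, held a palindrome match, with 2 mismatches. A match is a description of the letters only, and these receptors can also act through sites far outside such a window.

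Among the 9 genes, the targets Zbtb16 and Tsc22d3 had more than 2-fold lower signal in the knockout ovary, Per1 and Hsd11b1 had 1.73-fold and 1.78-fold lower signal, Hsd11b2 had close to 2-fold higher signal, and Sgk1, Fkbp5, Fkbp4 and Nr3c1 differed little. Signals are MAS5 intensities on a linear scale. Differences are given as the log2 signal of the knockout minus that of the wild type, for each gene's brightest probe set, by mean log2 signal over both arrays. A signal counted as measured if it reached the array's floor, the median over probe sets other than controls, which was 36.25 for wild type and 37.95 for knockout. Signals under the floor were set to it, and a fold against such a value is written as "at least". All 9 genes were measured by their brightest probe set, and on both arrays. Of the 23 probe sets, 16 were measured on both arrays, 2 on the wild-type array alone and 5 on neither.

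Of the 9 genes, 2 were at least 2-fold lower in the knockout, against 1.72% of the 11316 measured genes, and 0 were at least 2-fold higher, against 1.15%. After removal of the loess trend of difference on signal the counts of members were the same, against 2.11% and 0.707% of all genes. At 1.5-fold, 4 were lower, against 4.75% of all measured genes, and 1 was higher, against 6.54%. The members were chosen with earlier results of these data known, so these counts are not independent evidence. The median log2 difference of the 9 genes was -0.27, and that of all measured genes was 0.06. The members thus spread over much of the range of the arrays, from -2.13 to 0.99, and did not move as a block.

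**Figure D1:**
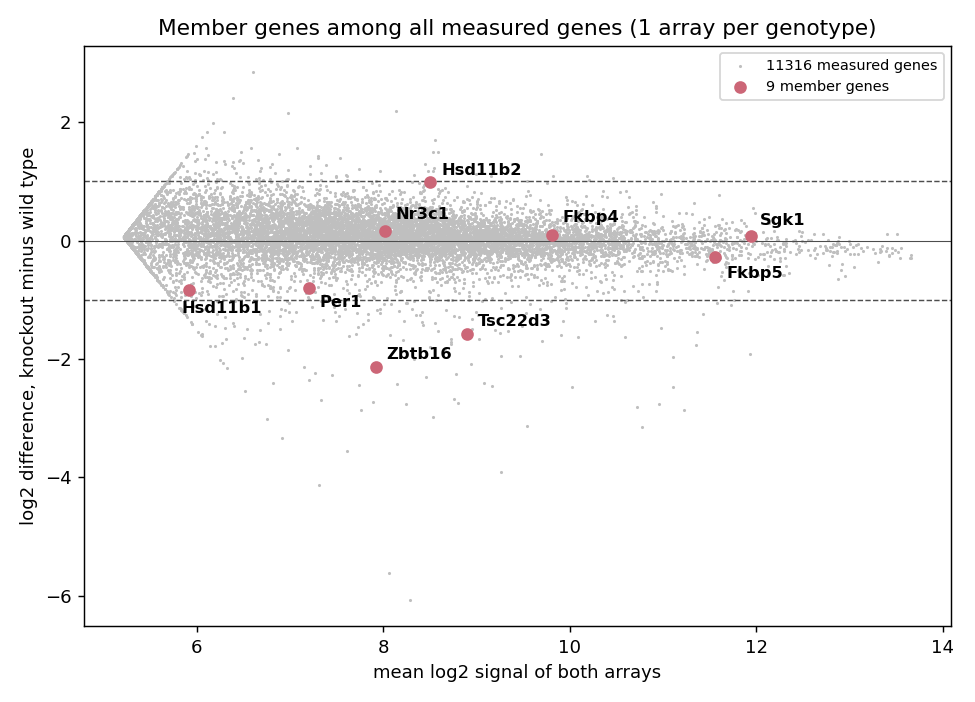
Log2 difference between the knockout and the wild-type array (vertical axis) against the mean log2 signal of both arrays (horizontal axis), 1 point per gene; grey points are the 11316 measured genes, red points the 9 member genes, and dashed lines mark 2-fold. Zbtb16 (-2.13) and Tsc22d3 (-1.57) lie below the lower line, Hsd11b2 (0.99) lies just under the upper line, and Sgk1 and Fkbp4 lie near 0.

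Pgr itself was read by 3 probe sets, of which the brightest gave 36.5 in wild-type and 42.8 in knockout ovaries, close to the floors, so Pgr cannot check how the arrays were labelled. The other 2 lay under the floors. Ovarian marker genes were measured in both ovaries. Among them, the granulosa gene Inha gave 8399 in wild-type and 8073 in knockout ovaries, and the oocyte gene Gdf9 gave 775 and 859. Of the 9 measured granulosa markers, the other 8 had higher signal in the knockout by brightest probe set. The median log2 difference of the 9, Inha included, was 0.61. Both arrays had been scaled to a trimmed mean signal of 150. In a whole ovary, fewer cells of a type and less RNA per cell cannot be told apart, which applies to every difference given here. One spread that the arrays do allow is that between probe sets of 1 gene: over 4771 genes with at least 2 probe sets measured on both arrays, its SD (root mean square) was 0.25 on the log2 scale. It leaves out the spread between animals.

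**Figure D2:**
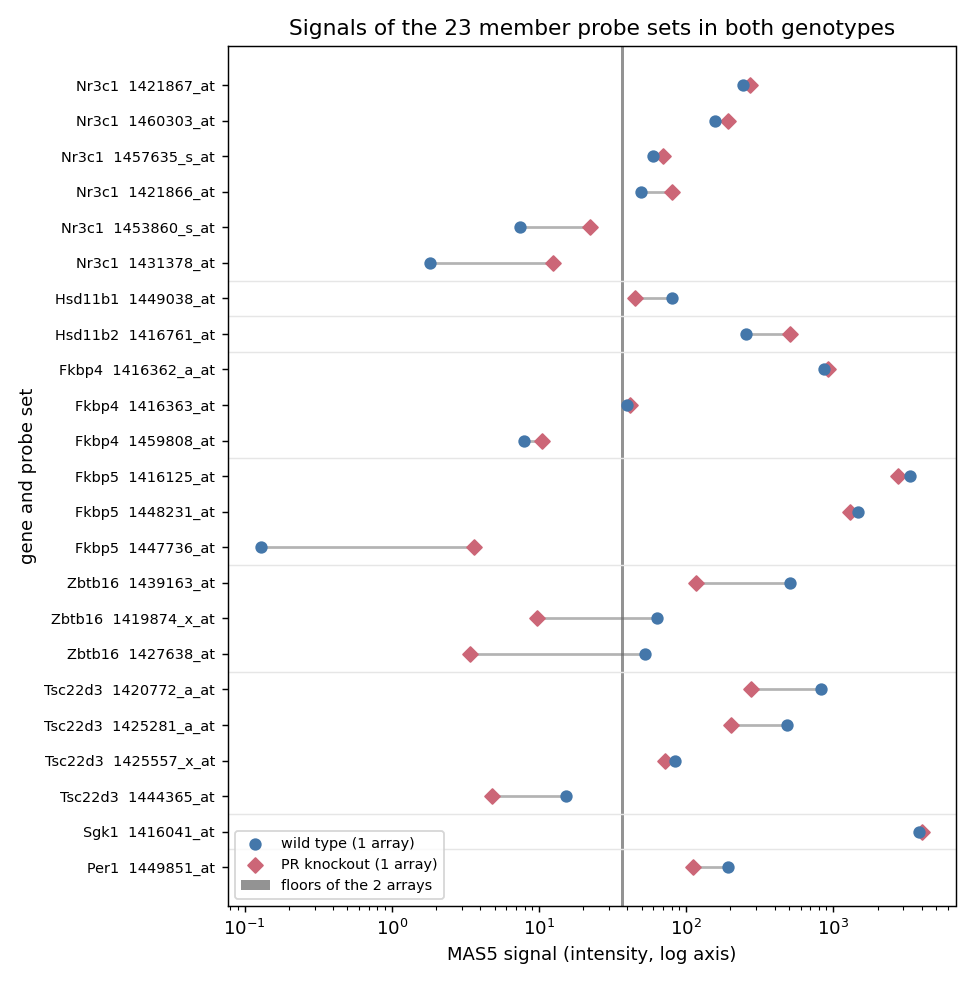
MAS5 signal (horizontal log axis) of each of the 23 probe sets in wild type (blue circles) and PR knockout (red diamonds), 1 array each; the grey band spans both floors. The Zbtb16 probe sets and the brighter Tsc22d3 probe sets sit to the left in the knockout, Hsd11b2 sits to the right, and the marks for Sgk1 nearly coincide.

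The glucocorticoid receptor gene Nr3c1 was measured in both ovaries, and its transcript was not lower in the knockout. Its brightest probe set gave 245 in wild-type and 274 in knockout ovaries, a log2 difference of 0.16. The other measured probe sets gave 158 and 193, 59.6 and 69.4, and 49.6 and 80.2, in the same order of genotypes. All 4 were higher in the knockout, by 0.16 to 0.69 on the log2 scale, with an SD of 0.24 between them. The 0.69 came from the dimmest of the 4. Its remaining 2 probe sets were under the floor on both arrays, at 7.4 and 22.1 and at 1.82 and 12.4. By its brightest probe set, 36.5% of measured genes had a higher difference than Nr3c1, which places it well inside the bulk of the arrays. The mineralocorticoid receptor gene Nr3c2, whose product binds corticosterone too, had 1 probe set, under the floor on both arrays at 1.7 and 5.15.

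The enzyme pair that sets how much active corticosteroid a cell sees differed in opposite directions. Hsd11b1 mainly regenerates active corticosteroid inside cells, and Hsd11b2 inactivates it. Hsd11b1 gave 80.6 in wild-type and 45.2 in knockout ovaries, 1.78-fold lower, with a log2 difference of -0.83. Both signals were dim, 2.22 and 1.19 times the floor of their array. Hsd11b2 gave 257 in wild-type and 511 in knockout ovaries, 1.99-fold higher, with a log2 difference of 0.99, at 7.08 and 13.46 times the floor. Each enzyme has 1 probe set, so no other probe set bears on its value. Among the 11316 measured genes, 132 had a higher difference than Hsd11b2 and 290 a lower one than Hsd11b1.

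Other genes of corticosteroid synthesis, conversion and transport were read from a list of 12, 11 of them on single-symbol probe sets and 8 measured. Of these 8, 1 was at least 2-fold lower, beside 1.72% of all measured genes, and 0 were at least 2-fold higher, beside 1.15%. The median log2 difference was 0.07, close to the 0.06 over all measured genes. The gene at least 2-fold lower was Akr1c18, whose product inactivates progesterone, with 4447 in wild-type and 634 in knockout ovaries. H6pd, which supplies Hsd11b1 with its reducing cofactor, gave 497 and 352, a log2 difference of -0.50. Cyp17a1, the theca enzyme of androgen synthesis, gave 2010 and 1456, a difference of -0.47. Cyp11b1, which makes corticosterone in the adrenal, gave 258 and 339, a difference of 0.39. Cyp21a1, needed for the step before it, was under the floor on both arrays at 23.2 and 27.9, as was Serpina6, which encodes the carrier of corticosteroids in blood. The adrenal and kidney are tissues that could lie next to a dissected ovary and that express several of these genes. Of 6 adrenal and kidney markers, Umod, Slc12a1, Kap and Cyp21a1 were under the floor on both arrays, while Cyp11b1 and Cyp11b2 were measured and had higher signal in the knockout. The summed signal of the 6 was 365 in wild-type and 465 in knockout ovaries, and most of it was Cyp11b1 (258 and 339).

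Fkbp4 and Fkbp5 encode co-chaperones that compete for a place on the heat shock protein complex of steroid receptors. The Fkbp4 product favours an active receptor, and that of Fkbp5 lowers its hormone binding and is itself induced by the receptors. Fkbp4 gave 864 in wild-type and 927 in knockout ovaries by its brightest probe set, a log2 difference of 0.10, and 39.6 and 41.9 by the second, a difference of 0.08, close to the floor. Fkbp5 gave 3314 and 2751 by its brightest probe set, a log2 difference of -0.27, and 1464 and 1293 by the second, a difference of -0.18. Each gene also had 1 probe set under the floor on both arrays. Fkbp5, a gene often used as a marker of steroid receptor activity, was thus 1.20-fold lower by 1 probe set and 1.13-fold lower by the other, and its larger difference was close to the SD of 0.25 between probe sets of a gene. Of all measured genes, 14.6% had a lower difference than Fkbp5.

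The wider list of receptor chaperones and co-chaperones had 20 genes, 17 of them on single-symbol probe sets, all measured. Of these, 10 had lower and 7 higher signal in the knockout, where 57.7% of all measured genes were higher. By brightest probe set, none of the 17 was at least 2-fold apart, beside 1.72% lower and 1.15% higher over all genes. The median log2 difference was -0.07. Ppp5c, at -0.07 by its brightest probe set, ran from -0.16 to 1.59 over its 3 measured probe sets. The largest difference by brightest probe set was in the heat-inducible co-chaperone gene Dnajb1, with 863 and 510. It was -0.76, and -0.47 in its other measured probe set. Hspa8, the constitutive heat shock protein that loads the receptor complex, gave 9124 and 6485, a difference of -0.49, with probe sets from -0.53 to 0.00. Hsph1, a nucleotide exchange factor, also gave -0.49, and Dnaja1 -0.35.

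Among the targets, Zbtb16 had the largest difference of the 9 genes. It encodes a zinc finger transcriptional repressor that progesterone and glucocorticoids both induce in several tissues. The brightest probe set gave 505 in wild-type and 116 in knockout ovaries, 4.37-fold lower, with a log2 difference of -2.13. Of the 11316 measured genes, 34 had a lower difference. The other 2 probe sets gave 63.3 and 9.73, and 52.5 and 3.38. In these the knockout signal was under the floor and the wild-type signal only 1.75 and 1.45 times it, so their folds are bounds, at least 1.67-fold and at least 1.38-fold lower. They passed the floor through the wild type alone, which fixes their direction. In these ovaries Zbtb16 therefore had lower signal in the knockout by 1 probe set measured on both arrays, and the dimmer ones set only a lower bound.

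Tsc22d3, which encodes the anti-inflammatory leucine zipper protein GILZ, was the other target at least 2-fold lower. Its brightest probe set gave 820 in wild-type and 276 in knockout ovaries, 2.97-fold lower, with a log2 difference of -1.57. The second gave 483 and 202, 2.39-fold lower, a difference of -1.26. Both were at least 5.33 times the floor on either array, so 2 probe sets measured on both arrays gave a difference beyond 2-fold. The third gave 84.3 and 72.2, 1.17-fold lower, a difference of -0.22. Its name ends in _x_at, the array maker's mark for probes that may also match other transcripts. The remaining one, at 15.4 and 4.78, was under the floor on both arrays. The SD between the 3 measured probe sets was 0.70, well above the 0.25 typical of a gene. Of all measured genes, 71 had a lower difference than Tsc22d3.

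Per1, a repressor of the circadian clock whose gene is switched on within hours by glucocorticoids and by cyclic AMP, gave 194 in wild-type and 112 in knockout ovaries. That is 1.73-fold lower, a log2 difference of -0.79, from 1 probe set, and 311 of all measured genes had a lower difference. Sgk1, a kinase induced by glucocorticoids, mineralocorticoids and gonadotropins, gave 3836 in wild-type and 4037 in knockout ovaries, a log2 difference of 0.07 and 1.05-fold higher. It was read far above the floor, at 105.83 and 106.37 times it, and lay close to the middle of all genes, with 47.5% of them having a higher difference. The Sgk1 window with the unbroken palindrome belongs to a member with a difference close to 0 (0.02 to 0.18 over the other ways of processing), while the windows of Tsc22d3, 2.97-fold lower, held no palindrome within 2 mismatches. No window of Zbtb16 was examined, and what these letters have to do with the differences was not tested.

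Of the 9 genes, 5 have more than 1 measured probe set, and in each of them all measured probe sets lay on the same side of 0. Over all 5271 genes with at least 2 measured probe sets this held for 57.3%. For Zbtb16 the agreement is fixed in part by the floor, as described above.

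Genes close to the members in both signal and difference were sought for Zbtb16 and Tsc22d3. The measure was the distance on the log2 scale in mean signal and difference over the 2 arrays, which is a weak measure with so few arrays. Nearest to Zbtb16 were Scara5, with 497 in wild-type and 91.3 in knockout ovaries, Cebpd, with 654 and 122, and Gpt2, with 562 and 154. They lay at distances of 0.36, 0.37 and 0.39. Nearest to Tsc22d3 were Nudt9 (833 and 294), Slc7a8 (927 and 291) and Nfil3 (749 and 237), at 0.09, 0.16 and 0.20.

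Other genes known to respond to glucocorticoids were more often lower than higher in the knockout. The list held 36 genes, 35 of them on single-symbol probe sets and 32 measured. Of these 32, 25 had lower signal and 7 higher, where 42.2% of all measured genes were lower. At least 2-fold lower were 9, against 1.72% of all measured genes, and 0 were at least 2-fold higher against 1.15%. The median log2 difference was -0.42, beside 0.06 over all measured genes. Some of these genes were already known to be lower on these arrays when the list was written, so the count is not independent evidence. Per2, Lcn2 and Irs2 passed the floor through the wild type alone, which fixes their direction. Over the 29 genes measured on both arrays, 22 were lower and the median was -0.41, with 8 at least 2-fold lower.

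The largest difference in that list was in Errfi1, a feedback inhibitor of EGF receptor signalling, with 6420 in wild-type and 886 in knockout ovaries (log2 difference -2.86). Of the metallothionein genes, whose products bind zinc and copper, Mt2 gave 5187 and 764, a difference of -2.76, and Mt1 gave 7583 and 2011, a difference of -1.92. Cebpd, a transcription factor of inflammation and fat cell formation, gave 654 and 122 by its brightest probe set, a difference of -2.42, but its other measured probe set gave 0.00. All of these are also known to respond to signals other than steroids. Members of the list that differed little included Dusp1, the phosphatase gene that glucocorticoids induce in many cells, with 1382 and 1211 (-0.19), and Klf9, a transcription factor gene, with 1123 and 1046 (-0.10) by its brightest probe set and down to -1.11 in another. On the higher side, the thioredoxin inhibitor gene Txnip gave 1003 and 1688, a difference of 0.75, and Klf15, dim at 49.3 and 81.9, gave 0.73. Dusp1, Klf9, Txnip and Klf15 were chosen after their values were seen.

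**Figure D3:**
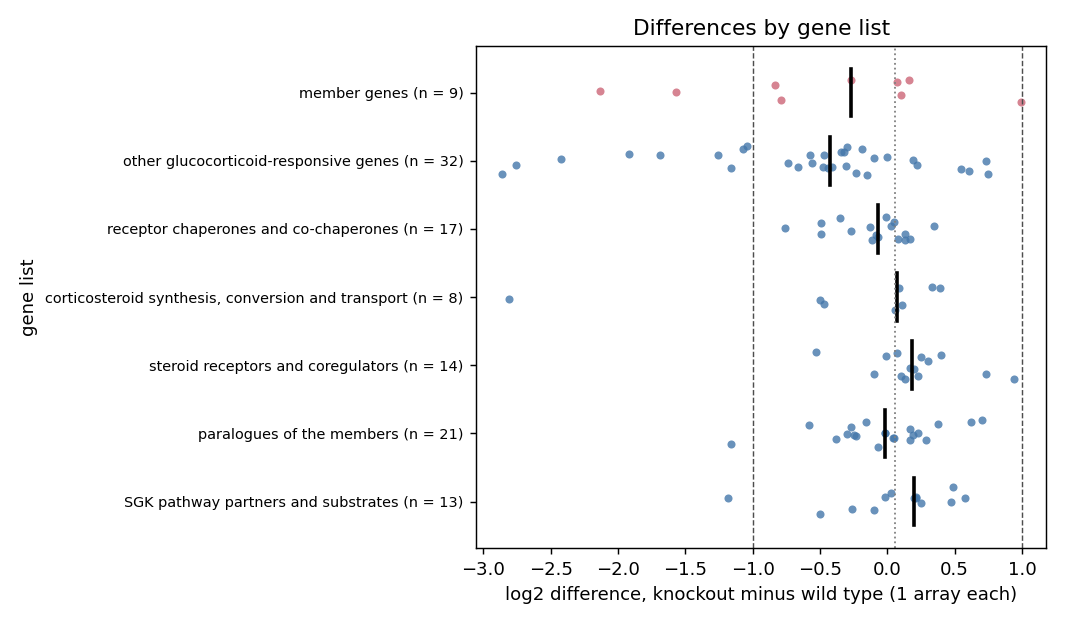
Log2 difference between the knockout and the wild-type array (horizontal axis) for each measured gene of the 9 members (red) and of 6 further lists (blue), 1 point per gene; black bars are medians, the dotted line is the median over all measured genes (0.06) and dashed lines mark 2-fold. The glucocorticoid-responsive genes have the lowest median (-0.42), and the points of the chaperone and coregulator lists stay between the dashed lines.

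The list of steroid receptors and coregulators had 18 genes, 15 of them on single-symbol probe sets and 14 measured. Of these, 11 had higher signal in the knockout, beside 57.7% of all measured genes, and 0 were at least 2-fold apart, beside 1.72% lower and 1.15% higher over all genes. The 11 include Pgr itself, which was close to the floors at 36.5 and 42.8. The median log2 difference was 0.19. The estrogen receptor genes Esr2, with 179 and 342 (0.94), and Esr1, with 184 and 243 (0.40), and the coregulator gene Nrip1, with 769 and 1277 (0.73, but -0.50 to 1.22 over its 6 measured probe sets), were higher. The acetyltransferase gene Ep300 gave 550 and 381, a difference of -0.53. Among 13 measured partners and substrates of the SGK kinases, the median was 0.20 (0.12 over the 12 measured on both arrays) and 1 gene was at least 2-fold lower, beside 1.72% of all measured genes. This was Ndrg1, a substrate that is phosphorylated by SGK1 and also induced by hypoxia, with 434 and 191 (-1.18, and -0.80 in the least different of its 5 measured probe sets). Mapkap1, which encodes a subunit of the kinase complex that activates SGK1, gave 225 and 336 (0.58, with 0.04 in its other measured probe set). The scaffold gene Slc9a3r1 gave 422 and 299 (-0.50), and Ndrg2, a relative of Ndrg1, 641 and 903 (0.49). The epithelial sodium channel genes Scnn1a, Scnn1b and Scnn1g, classical targets of SGK1 action, were under the floor on both arrays.

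Markers of cell types that could carry the members were read on the same arrays, on which 57.7% of all measured genes were higher in the knockout. Granulosa markers had higher signal in the knockout in 8 of 9 measured genes (median 0.61), and their summed signal was 14708 in wild-type and 16412 in knockout ovaries. The count is by brightest probe set, and 1 of the 8, Nr5a2 (0.09), ran from -0.47 to 0.09 over its 3 measured probe sets. Stroma and fibroblast markers were higher in 5 of 6, at 9011 and 11167 in sum, and endothelial markers in 4 of 6, at 1042 and 1263. Of 8 leukocyte markers 5 were measured, 3 lower and 2 higher, with sums of 604 and 650, and the lymphocyte genes Cd3e and Cd79a were under the floor on both arrays. Of 5 fat markers only Fabp4 was measured, at 335 and 70.9, and endothelial cells express it too. The defining fat cell genes Adipoq, Lep and Cidec lay between 1.26 and 4.24, so the sums of 362 and 85.4 are mostly Fabp4. Of 6 oviduct epithelium markers, the keratin genes Krt8 (366 and 162) and Krt18 (264 and 128), which other epithelia also express, had lower signal in the knockout. Epcam (42.1 and 29.0) passed the floor through the wild type alone, which fixes its direction, and Ovgp1, Foxj1 and Pax8 were under the floor on both arrays. Of 3 theca markers measured on both arrays 2 were lower (median -0.01), and Gli1 passed the floor through the knockout alone, which fixes its direction. Luteal markers were lower in 3 of 5, smooth muscle markers in 3 of 5, while oocyte markers were higher in 6 of 6. The part of these shifts in the differences of the 9 genes was not tested.

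**Figure D4:**
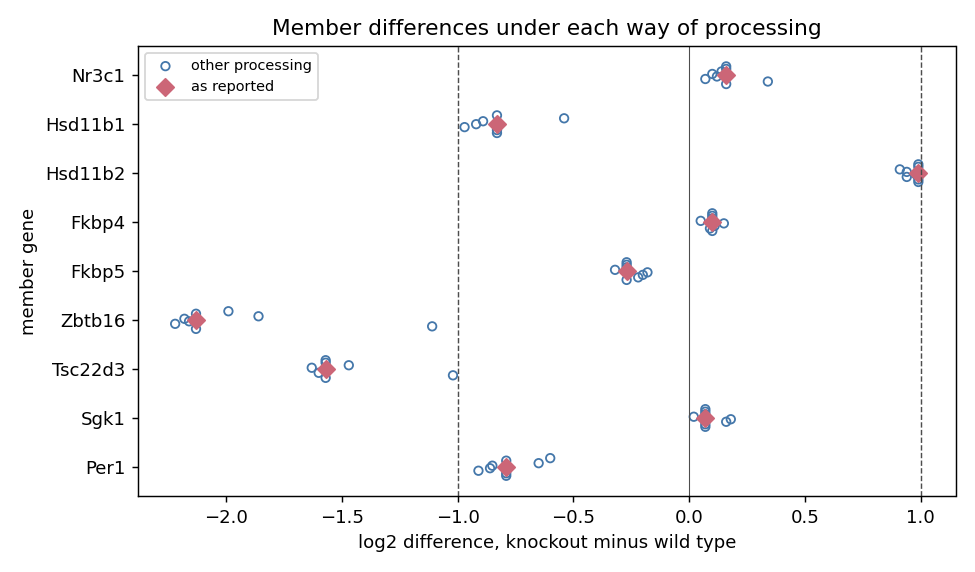
Log2 difference of each of the 9 member genes (horizontal axis, knockout minus wild type) as reported (red diamonds) and under each other way of processing (blue circles, 8 per gene and 7 for Hsd11b1); dashed lines mark 2-fold. Zbtb16 and Tsc22d3 stay below the lower line under each of the 8, with -1.11 and -1.02 when the measured probe sets of a gene are averaged, and no gene crosses 0.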

How the data were processed

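The deposited values are linear intensities, 1 for each probe set on each array, which the authors made with MAS5 in Affymetrix Expression Console version 1, per the submitters' processing notes. Total RNA (100 ng) was labelled with a 3′ kit, per the labels' protocols, so signals come mostly from transcript ends. MAS5 subtracts mismatch probes, which makes low signals noisy. Detection calls were not used here.

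Intensities were used as deposited (Python 3.11.15, pandas 2.3.3). Of 45037 probe sets other than controls, 34945 carried 1 gene symbol, 932 several and 9160 none, and only the first kind was used. They name 18193 genes, and all 9 members were found in the RefSeq gene table (GRCm38.p6) under the same symbol. Each gene was read from its brightest probe set (mean log2 signal) and was measured if its signal was at or above the floor in either genotype. With 1 array per genotype no test was possible, and the number of arrays limits precision. The calculation was tested on simulated data, with planted changes well beyond 2-fold and noise smaller than the spread between probe sets of a gene. That test therefore does not bear on differences near 2-fold. Named from each list were the 4 measured genes with the largest differences; other names are given as context or as stated. Members and lists were chosen with earlier results of these data known. Alternatives changed the floor, an offset, the scaling, the choice of probe sets and the threshold.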

Additional observations from a re-analysis of the deposited data

How the results depend on the processing

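No paired analysis was possible because each genotype has 1 array. The direction of each of the 9 genes held under all 8 alternatives that gave it a value (7 for Hsd11b1, which was not measured with the 70th-percentile floor). Zbtb16 and Tsc22d3 stayed at least 2-fold lower in each, from -2.22 to -1.11 and from -1.63 to -1.02. Their smallest differences came from averaging a gene's measured probe sets, which for Zbtb16 brings in the floored ones. Hsd11b2 stayed just under 2-fold (0.91 to 0.99), Hsd11b1 ran from -0.97 to -0.54 (with the offset of 32), and Per1 from -0.91 to -0.60. The small differences stayed small: Nr3c1 from 0.07 to 0.34, Fkbp4 from 0.05 to 0.15, Fkbp5 from -0.32 to -0.18 and Sgk1 from 0.02 to 0.18. With a 1.5-fold threshold in place of 2-fold, 4 member genes in place of 2 counted as lower in the PR knockout array, and 1 in place of 0 as higher. The median of the members ran from -0.32 to -0.10. The -0.10 came with the 70th-percentile floor, over the 8 members then measured, without Hsd11b1. Where all 9 were measured, the median ran from -0.32 to -0.18. Over all genes, calls of at least 2-fold were 60% lower ones as deposited, 69.3% after median centring, 69.7% after quantile normalization and 74.9% without the loess trend. The all-gene count at least 2-fold higher was 130 as deposited. It was 35 with the 70th-percentile floor, 47 with the offset, 80 without the loess trend and 215 with no floor. The count at least 2-fold lower was 195 as deposited. It was 128 with the 70th-percentile floor, 150 with the offset, 239 without the loess trend and 261 with no floor. With the 70th-percentile floor 8160 genes were measured in place of 11316, and the share at least 2-fold lower was 1.57% in place of 1.72%. Alternatives for the lists were added after seeing the data: the median of the glucocorticoid-responsive list ran from -0.50 to -0.38 and its count at least 2-fold lower from 6 (offset) to 10 (no floor), the corticosteroid list's median from -0.06 to 0.07, and the coregulators' from 0.11 to 0.19. The SGK list's count went to 0 with the mean over measured probe sets. Dim signals limit Hsd11b1 and the minor Zbtb16 probe sets.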

Other observations

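Paralogues of the members, from a list of 24 genes with 23 on single-symbol probe sets and 21 measured, had a median log2 difference of -0.02, and its sign turned with the processing (-0.07 with median centring, 0.05 with the 70th-percentile floor). Only Per2, the closest relative of Per1, was at least 2-fold lower: it gave 85.1 in wild-type and 34.2 in knockout ovaries, under the floor, at least 2.24-fold lower. With the 70th-percentile floor or the offset of 32, no paralogue was at least 2-fold lower. Per3, at 39.7 and 27.6, passed the floor through the wild type alone. The relatives of Tsc22d3 did not share its difference in size. Tsc22d1 gave 12112 and 10832 (-0.16, with 6 measured probe sets from -0.26 to 0.22). Tsc22d2 gave 274 and 228 (-0.27) and Tsc22d4 286 and 282 (-0.02). Sgk3 gave 148 and 182 (0.29, with 3 measured probe sets from -0.03 to 0.40), and Sgk2 was not measured. Among the smaller immunophilins, Fkbp1a, which encodes the binding protein of the drug FK506, gave 5057 and 3386 (-0.58, with 4 measured probe sets from -0.78 to -0.58), and Fkbp7, a chaperone of the endoplasmic reticulum, gave 231 and 375 (0.70). Hsd17b1, an enzyme of estradiol synthesis that is also a granulosa marker, gave 906 and 1396 (0.62). Tsc22d1, Tsc22d2, Tsc22d4, Per3, Sgk2 and Sgk3 are named as the nearest relatives of the members, after their values were seen.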
